A study of Mus musculus with 7 samples.

Results

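The sites described here are places in the mouse genome where an Oct1 peak was absent from embryonic stem cells (ESCs), was listed at day 3 of mesodermal differentiation and was listed again at day 6. A day 6 Oct1 peak was counted when it overlapped a day 3 Oct1 peak by at least 1 bp and overlapped neither an ESC Oct1 peak nor an ESC Oct4 peak. Of the 7758 day 6 peaks, 2286 met this rule (29.5%, 95% interval 28.5 to 30.5), and they are called gained and kept sites below. The members were chosen by the presence of a called peak in each list, so presence and absence in the lists are a description and not a finding. Intervals are 95% intervals for the counting of peaks, genes or promoters only.

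All cells were of the parental genotype, and 1 ChIP-seq library was listed for each of the groups used, namely undifferentiated ESCs, probed for Oct1 and, separately, for Oct4, and cells on days 3 and 6, probed for Oct1. Differentiation ran for 2 days with Bmp4, a ligand of the TGF-beta family, and then for 4 days with Rspo3, which strengthens Wnt signalling, and LDN-193189, an inhibitor of BMP receptors. With 1 library per group there was no replicate error, and no difference between days could be tested across cultures. The whole day 6 list was longer than the day 3 list (4867 peaks) and shorter than the ESC lists (17709 for Oct1 and 22817 for Oct4), and sequencing depth is unknown. A peak list cannot show whether the cells had reached a mesodermal state.

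Oct1 (gene Pou2f1) is a widely expressed POU-domain transcription factor. POU factors bind the octamer ATGCAAAT, and Oct1 is best known for its role at histone H2B and small nuclear RNA promoters, where an octamer is part of the promoter. Oct4 (Pou5f1), its relative in pluripotent cells, reads related sequences. Many promoters of broadly used genes instead lie in CpG islands, which are rich in G and C and often hold GC boxes (GGGCGG), the recognition sequence of Sp-type factors.

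Promoter sequences are shown first because they carry the main contrast among the gained and kept sites. Most of these sites lay at GC-rich promoters without an octamer, and a few held one. The windows run from 250 bases before to 50 after the transcription start, on the strand of the gene, and come from RefSeq (GRCm38.p6). The first set gives the promoters of 3 of the 10 sites with the highest day 6 scores, with GC boxes on either strand in capitals and no exact octamer in any of them.

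Cyth1 (chr11:118248509-118248808, minus strand): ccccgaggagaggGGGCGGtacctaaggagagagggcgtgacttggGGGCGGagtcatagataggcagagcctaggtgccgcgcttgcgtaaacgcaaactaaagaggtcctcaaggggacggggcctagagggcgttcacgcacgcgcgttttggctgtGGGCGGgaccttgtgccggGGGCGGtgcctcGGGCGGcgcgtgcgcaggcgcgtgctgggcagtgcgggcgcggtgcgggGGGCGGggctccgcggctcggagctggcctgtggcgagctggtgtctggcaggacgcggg
Fau (chr19:6057697-6057996, plus strand): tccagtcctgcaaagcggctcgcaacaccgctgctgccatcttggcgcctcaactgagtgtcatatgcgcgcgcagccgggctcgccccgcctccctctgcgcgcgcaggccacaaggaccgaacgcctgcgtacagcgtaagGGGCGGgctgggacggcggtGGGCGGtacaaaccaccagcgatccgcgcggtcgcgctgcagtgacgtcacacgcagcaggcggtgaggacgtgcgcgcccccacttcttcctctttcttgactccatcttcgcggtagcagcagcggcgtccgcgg
Cbx8 (chr11:119040864-119041163, minus strand): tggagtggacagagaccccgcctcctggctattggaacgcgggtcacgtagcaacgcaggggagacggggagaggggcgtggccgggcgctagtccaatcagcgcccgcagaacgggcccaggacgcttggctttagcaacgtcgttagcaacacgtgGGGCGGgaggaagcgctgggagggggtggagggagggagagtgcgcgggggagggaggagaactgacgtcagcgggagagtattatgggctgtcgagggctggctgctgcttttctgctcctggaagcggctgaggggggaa

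The second set gives the promoters of 4 described genes at which an exact octamer (ATGCAAAT, or ATTTGCAT where it lies on the other strand) was found, here in capitals.

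Armc6 (chr8:70234373-70234672, minus strand): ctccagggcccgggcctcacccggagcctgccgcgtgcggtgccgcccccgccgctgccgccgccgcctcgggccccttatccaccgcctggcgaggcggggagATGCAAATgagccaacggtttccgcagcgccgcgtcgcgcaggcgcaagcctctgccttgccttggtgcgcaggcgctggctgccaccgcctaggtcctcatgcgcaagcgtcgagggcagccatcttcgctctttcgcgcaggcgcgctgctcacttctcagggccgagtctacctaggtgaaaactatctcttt
Sox1 (chr8:12395269-12395568, plus strand): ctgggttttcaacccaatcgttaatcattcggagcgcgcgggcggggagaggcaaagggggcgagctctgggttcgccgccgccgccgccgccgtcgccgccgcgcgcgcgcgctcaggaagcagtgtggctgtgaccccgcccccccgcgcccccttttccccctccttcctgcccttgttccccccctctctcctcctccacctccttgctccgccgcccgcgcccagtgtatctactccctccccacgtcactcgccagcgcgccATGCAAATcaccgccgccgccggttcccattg
Dll1 (chr17:15375774-15376073, minus strand): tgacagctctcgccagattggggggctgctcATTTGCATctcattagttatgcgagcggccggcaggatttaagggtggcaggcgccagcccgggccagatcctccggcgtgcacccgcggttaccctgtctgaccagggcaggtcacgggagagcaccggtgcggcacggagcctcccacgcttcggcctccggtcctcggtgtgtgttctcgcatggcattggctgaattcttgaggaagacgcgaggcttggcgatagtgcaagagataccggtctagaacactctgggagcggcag
Nrarp (chr2:25180508-25180807, plus strand): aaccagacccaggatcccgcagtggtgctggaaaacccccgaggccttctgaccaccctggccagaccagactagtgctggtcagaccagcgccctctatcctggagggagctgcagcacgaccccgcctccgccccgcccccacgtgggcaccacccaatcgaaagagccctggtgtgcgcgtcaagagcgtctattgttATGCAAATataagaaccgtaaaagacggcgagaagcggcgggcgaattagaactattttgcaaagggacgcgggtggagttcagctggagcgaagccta

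The Cyth1 window held 6 GC boxes, the Fau window 2 and the Cbx8 window 1. Counted from the start site, the octamer began at -146 in Armc6, at 18 in Sox1, at -219 in Dll1 and at -49 in Nrarp, and each of these starts lay inside the day 6 peak. Of the 1763 gained and kept sites with a listed start within 1 kb, 32 had a promoter window with an exact octamer, at 33 genes.

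Gained and kept sites lay at the starts of genes. The midpoint of 1936 of them (84.7%, 83.1 to 86.1) was within 1 kb of an end of an annotated gene, and that of 1763 (77.1%, 75.3 to 78.8) was within 1 kb of a listed transcription start. Either held for 2114 sites (92.5%). Of the rest, 130 lay inside a gene and 42 outside genes. The nearest gene was protein-coding for 2069 sites, a long noncoding RNA for 191, a microRNA for 13, a pseudogene for 7 and a small nuclear RNA for 4. Where a start was listed within 1 kb, the median distance of the midpoint from it was 86 bp, 54.9% of midpoints were within 100 bp of it and 86.9% within 250 bp. The midpoints were centred slightly upstream, with a median of -15 bp and quartiles of -103 and 72 bp.

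**Figure D1:**
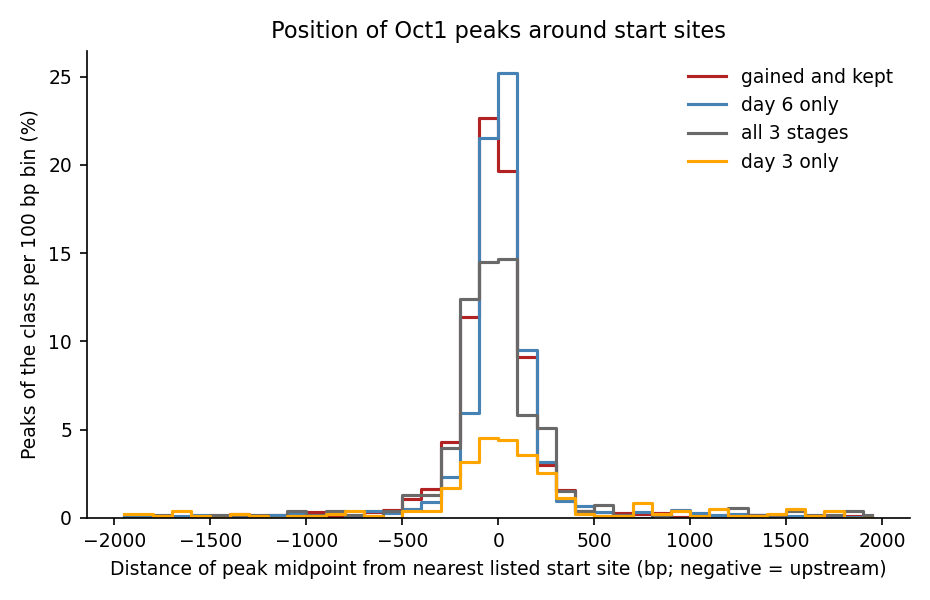
Share of peaks in each class (%, vertical axis) per 100 bp bin of the distance from the peak midpoint to the nearest listed start site (bp, horizontal axis, negative values upstream). Gained and kept sites (2286), day 6 only sites (4073) and sites of all 3 stages (532) all peak at the start, while day 3 only sites (819) have a lower peak there.

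The position of these sites was set against 3 other classes of Oct1 peak. Day 6 only sites were the 4073 day 6 peaks found in no other list, sites of all 3 stages were the 532 day 6 peaks that overlapped both a day 3 and an ESC Oct1 peak, and day 3 only sites were the 819 day 3 peaks in no other list. A gene end lay within 1 kb of 82.0% of day 6 only sites, 71.6% of sites of all 3 stages and 32.4% of day 3 only sites. The gained and kept share exceeded these by 2.66 percentage points (Newcombe interval 0.745 to 4.52), 13.1 points (9.10 to 17.3) and 52.3 points (48.7 to 55.8). The small difference from day 6 only sites was not present among peaks of similar strength. Within 4 groups of about equal size by day 6 score it was -0.275, -0.177, -2.68 and -2.61 points from the lowest to the highest group, and every interval included 0. When each list was reduced to its upper 50% by score, it was -0.932 points (-3.27 to 1.32). Under that threshold the differences from sites of all 3 stages and from day 3 only sites were smaller, at 7.97 points (3.38 to 13.1) and 15.5 points (10.7 to 20.7).

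Starts on both strands within 1 kb, the arrangement of genes that share a promoter region, were found at 409 of the 1763 sites with a listed start (23.2%, 21.2 to 25.2). The share was 20.8% at day 6 only sites, a difference of 2.44 points (0.0113 to 4.91) that was not compared within groups of peak score. It was 20.8% at sites of all 3 stages, a difference of 2.37 points (-2.67 to 6.85). At day 3 only sites it was 12.9%, a difference of 10.3 points (4.59 to 14.7). Fau and Mrpl49, which encode a cytosolic and a mitochondrial ribosomal protein, shared a gained and kept site with this arrangement.

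Whether a new day 3 site was kept went along with its position. Of the 3116 day 3 peaks in neither ESC list, 2297 (73.7%, 72.1 to 75.3) overlapped a day 6 peak. Of the 2203 at a gene end, 88.0% (86.5 to 89.3) did so, and of the 913 away from gene ends 39.3% (36.1 to 42.6), a difference of 48.6 points (45.1 to 52.0). The difference was present in each of 4 groups by day 3 score and was smaller among stronger peaks. It was 55.4 points (49.2 to 61.0) for scores of 25 to 117, 37.4 points (29.9 to 44.8) for 118 to 209, 20.5 points (13.0 to 29.2) for 210 to 343 and 9.74 points (3.95 to 17.1) for 344 to 2058. The gained and kept sites overlapped 2285 day 3 peaks in all, and 1 day 3 peak was shared by 2 of them.

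**Figure D2:**
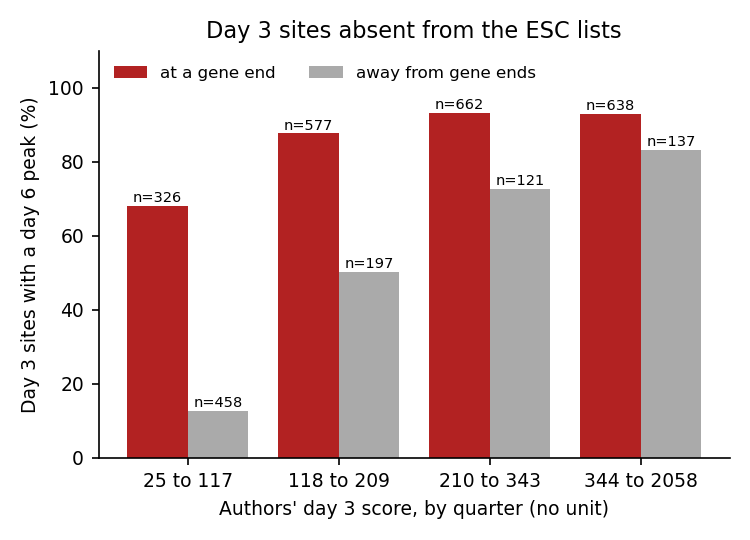
Share of day 3 Oct1 peaks in neither ESC list that overlapped a day 6 peak (%, vertical axis) in 4 groups of the authors' day 3 score (horizontal axis), for peaks at a gene end (red) and away from gene ends (grey), with the number of peaks above each bar. At a gene end the share was 68.1% in the lowest group and 92.9% in the highest, and away from gene ends it was 12.7% and 83.2%.

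The promoters at gained and kept sites were rich in G and C. The 2557 promoter windows with a site within 1 kb of the start had a median GC content of 67.0% (quartiles 62.0 and 72.0), against 52.7% for all 32851 windows in the table, of which these are 7.78%. The ratio of observed to expected CpG, which falls where CpG has been lost from the genome, had a median of 0.851 and was at least 0.6 in 91.4% of the windows, against 35.8% of all windows. Windows of day 6 only sites had a median GC content of 64.7%, and those of sites of all 3 stages one of 59.3%. Their CpG ratios had medians of 0.847 and 0.803 and were at least 0.6 in 87.5% and 83.1% of windows. Of 8896 protein-coding genes with a promoter window of CpG ratio 0.6 or more, 18.7% had a gained and kept site at an end, and of 8596 genes with lower ratios 1.90% did.

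Exact octamers were rare in these promoters. Among the 2557 windows 34 held one (1.33%, 0.923 to 1.85), against 1.74% of all windows. The share was 0.482% in windows of day 6 only sites and 10.6% in windows of sites of all 3 stages, and in those of day 3 only sites it was 3.23% (8 of 248, 1.40 to 6.26). Leaving out windows that belonged to both classes, the gained and kept share was 0.858 points higher than that of day 6 only sites (0.395 to 1.41) and was lower than that of sites of all 3 stages, with a difference of -9.31 points (-12.4 to -6.78). From windows without a gained and kept site it differed by -0.440 points (-0.847 to 0.102). Windows of 1 gene can overlap, so these intervals are too narrow. The difference from day 6 only windows was not compared within groups of peak score. Median day 6 scores were 863.5 at gained and kept sites and 432 at day 6 only sites.

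Base composition changes how often an octamer is met, so the windows were also split into 4 groups by GC content. Most gained and kept windows (1933) were in the highest group, with GC of at least 62.0%. There 25 of them held an octamer (1.29%, 0.839 to 1.90), against 34 of 6168 windows without a site (0.551%, 0.382 to 0.769) and 20 of 165 windows of sites of all 3 stages (12.1%, 7.56 to 18.1). In the group below it the numbers were 7 of 510 (1.37%), 89 of 7776 (1.14%) and 21 of 249 (8.43%). Among gained and kept sites with a listed start, an octamer was present at 2 of 443 in the lowest of 4 groups by day 3 score and at 19 of 440 in the highest (4.32%, 2.62 to 6.66). By day 6 score the numbers from the lowest to the highest group were 7 of 441, 7 of 442, 3 of 440 and 15 of 440, with no steady rise.

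Other motifs were read on both strands in the same windows, and none of the letter strings searched contains another. A GC box (GGGCGG) was found in 83.7% of gained and kept windows (82.2 to 85.1), against 35.7% of all windows, and the difference from day 6 only windows was 7.19 points (5.23 to 9.10). In the highest GC group the GC box was in 90.8% of windows with a site and in 81.2% of those without. An ETS-type string (CCGGAAG) was in 16.2% of gained and kept windows, 22.0% of day 6 only windows and 8.86% of all windows, with a difference of -5.91 points from day 6 only (-7.80 to -3.98). The GC box and ETS differences from day 6 only windows were not compared within groups of peak score. CCAAT was in 36.5%, close to 37.4% of all windows, whereas windows of sites of all 3 stages held it in 53.4% of cases. TATAAA was in 3.56% of gained and kept windows, close to 3.83% of day 6 only windows, and in 13.6% of all windows.

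Further strings were compared with all windows in the same way, and the share of gained and kept windows is given first. TGACGTCA, the cyclic AMP response element, was in 3.40% and 1.79%. The E-box CACGTG was in 12.3% and 7.15%. The Smad-type string CAGACA was less frequent than in all windows (11.6% and 21.0%), as was the T-box string AGGTGTGA (0.469% and 1.28%). Windows of day 6 only sites were close to gained and kept windows in all 4 strings, with TGACGTCA in 3.79%, CACGTG in 11.0%, CAGACA in 12.3% and AGGTGTGA in 0.434%. Only the octamer and GC box were compared within groups of GC content, so for the other strings composition was not matched. Median GC content was 67.0% in gained and kept windows and 52.7% in all windows. A match to letters is not a bound site.

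**Figure D3:**
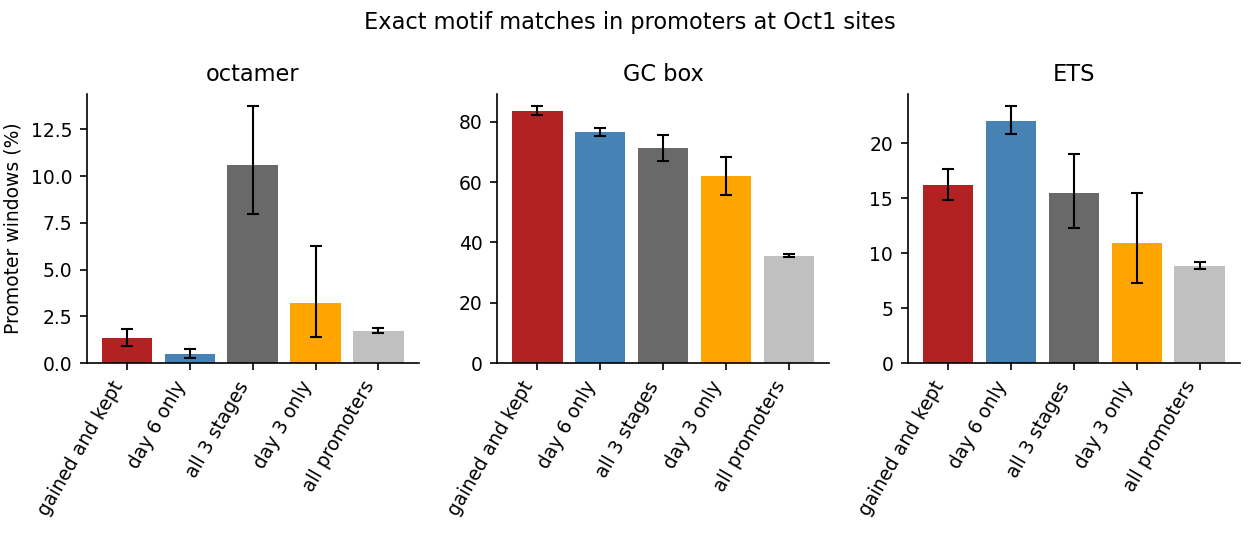
Share of promoter windows (%, vertical axes, which start at 0 and differ between panels) with an exact octamer, GC box or ETS-type string, for windows at each class of Oct1 site and for all promoters. Bars are shares and lines are exact 95% intervals for counting, and the octamer share is 1.33% at gained and kept sites against 10.6% at sites of all 3 stages.

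The authors' score, a whole number per peak with no unit, placed gained and kept sites above the middle of both lists. Their day 6 scores ran from 54 to 4853 with a median of 863.5 (quartiles 523 and 1307), at a median percentile of 72.9 in the day 6 list. Day 6 only sites had a median of 432 and sites of all 3 stages one of 835. Their day 3 scores ran from 39 to 1668 with a median of 251.5, at a median percentile of 61.5 in the day 3 list. The share of day 6 peaks that were gained and kept was 6.67% in the lowest group of day 6 scores, 21.5% and 34.9% in the middle groups and 54.9% in the highest. A member had to be called in both lists, so its place in them by score is a description and not a finding. Sites of all 3 stages reached 30599 at day 6. Across the 2286 sites the day 3 and day 6 scores had a Spearman rho of 0.608, as a description of peaks that share local chromatin and base composition. In both lists 126 sites were in the top 10%, and 1320 were in the upper part (above percentile 50) of both.

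**Figure D4:**
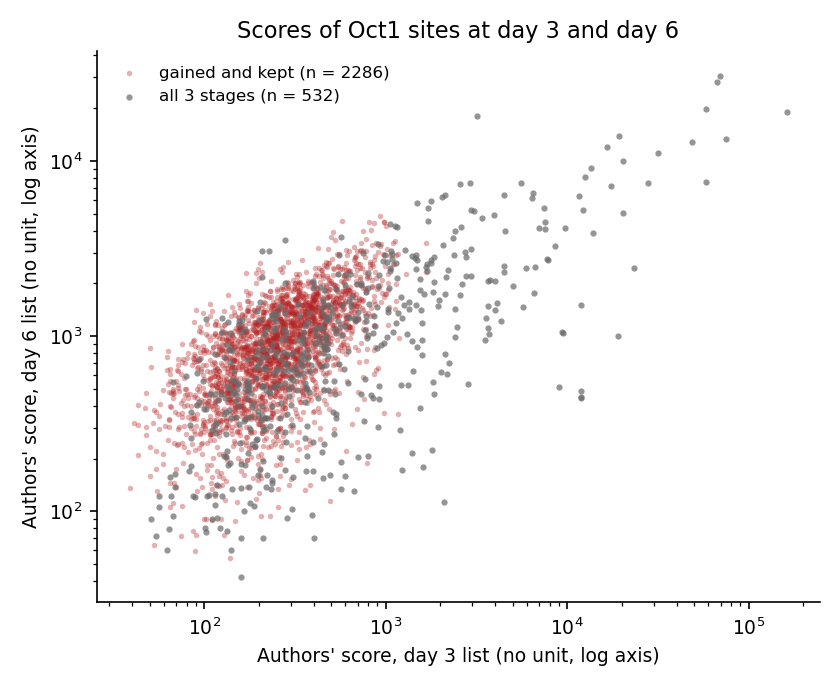
Authors' day 6 score against the day 3 score of the same site (no unit, both axes logarithmic) for 2286 gained and kept sites (red) and 532 sites of all 3 stages (grey). Gained and kept sites stay at or below 1668 at day 3 and 4853 at day 6, whereas sites of all 3 stages extend to higher scores on both axes.

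Sites were named by the nearest listed start within 1 kb or, where there was none, by the nearest gene end. The 10 sites with the highest day 6 scores lay at genes of different functions. The site at Cyth1, which encodes an exchange factor for ARF GTPases, scored 4853 at day 6 (rank 35) and 935 at day 3 (rank 254). That at Fau, a ribosomal protein gene, scored 4527 and 574. That at Upf1, the helicase of nonsense-mediated RNA decay, scored 4480 and 811. All 3 had their midpoint upstream of a start, by 102, 67 and 76 bp, with the nearest ESC Oct1 peak at least 7210 bp away. The other sites in the top 10 lay at Retreg3 (4478 at day 6 and 982 at day 3), Actn4 (4461 and 981), which encodes an alpha-actinin, Ranbp3 (4430 and 865), Ubr4 (4259 and 1008), which encodes a ubiquitin ligase, Armc6 and Sugp2 (4010 and 827), Cntrob (3966 and 751) and Cbx8 (3924 and 510).

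Ranked by the day 3 score, other genes led. A site at Kmt2a, a histone H3 lysine 4 methyltransferase, scored 1668 at day 3 and 2333 at day 6, and was 1970 bp wide. Ahsa2 also scored 1668 at day 3, with 3399 at day 6. The site at Pou6f1, a POU-domain factor, scored 1183 at day 3 (percentile 96.3) and 978 at day 6 (percentile 77.7). Trerf1 stood at percentile 96.2 at day 3 (score 1162) and 36.1 at day 6 (score 361). Rnf2, the Polycomb ubiquitin ligase for histone H2A, scored 1131 and 1429. The others in the top 10 were Gpr155 (1285 at day 3), Mtch2 (1172), Map4k4 (1140), Add3 (1140) and a site 8187 bp from the nearest gene end, that of Gm6444 (1139).

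Gene lists were read against all genes. Of 21887 protein-coding genes, 2198 (10%) had a gained and kept site within 1 kb of an end, and 16.8% had a day 6 only site, 1.85% a site of all 3 stages and 1.09% a day 3 only site. Of the 26 lists, 17 had a larger share than the 10%, and for 8 of these the interval lay above it. No list had an interval below it. A site within 1 kb of a gene's end can also be nearer to a neighbour: the sites counted for Eif4e1b, Hnrnpul2, Rpl4, Men1, Kdm5a, Bmp7 and Tbx3 have a listed start within 1 kb only of Tspan17, Ttc9c, Snapc5, Map4k2, Ccdc77, Gm40010 and Tbx3os1, in that order. Many listed genes have CpG-rich promoters, for which the share was 18.7%. Among genes with such a promoter, the share was 15.9% for cell cycle genes (10 of 63), 13.1% for RNA polymerase and general transcription factors (8 of 61), 7.69% for Mediator (2 of 26), 20.3% for mitochondrial ribosomal proteins (13 of 64), 28.4% for splicing factors (19 of 67) and 26.1% for translation factors (12 of 46). It was 23.1% for the TGF-beta, BMP and Smad list (6 of 26) and 25.8% for the Wnt list (8 of 31). The intervals of these 8 lists include 18.7%.

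**Figure D5:**
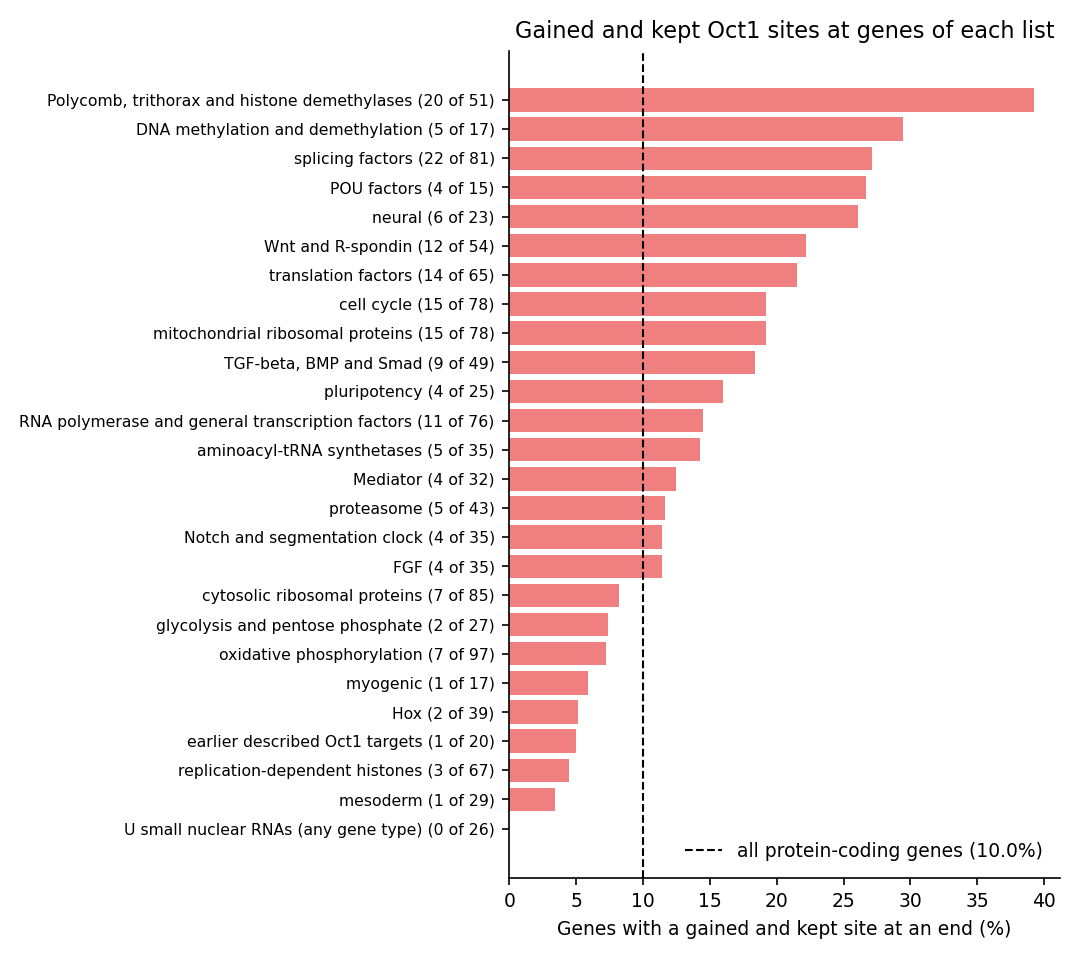
Share of the genes of each list with a gained and kept Oct1 site within 1 kb of an end (%, horizontal axis), with the number of genes and the size of the list beside its name. The dashed line marks 10%, the share of all protein-coding genes, and the Polycomb, trithorax and histone demethylase list has the longest bar (20 of 51).

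Genes of chromatin regulators had the largest share of all 26 lists, although among genes with a CpG-rich promoter window POU factors had a larger one (3 of 6). Of 51 genes of Polycomb, trithorax and histone demethylase proteins, which silence genes, keep them active or remove histone methylation, 20 had a site (39.2%), 13 a day 6 only site and 4 a site of all 3 stages. Of the 37 with a CpG-rich promoter window, 13 had one (35.1%, 20.2 to 52.5, against 18.7% of such genes overall). The median day 6 score of the 20 was 1305.5, against 863.5 for all gained and kept sites. With only the upper 50% of each list by score, 11 of the 51 remained (21.6%), against 6.03% of all protein-coding genes.

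Both Polycomb complexes were represented. From Polycomb repressive complex 1, which ubiquitinates histone H2A, sites lay at Rnf2, Bmi1, Pcgf1, Pcgf3, Phc1, Cbx6 and Cbx8, among others. Pcgf3 scored 1813 at day 6 and 478 at day 3, and Bmi1 scored 1759 and 179. Polycomb repressive complex 2, which methylates histone H3 lysine 27, contributed Ezh1, Eed, Suz12 and its cofactor Jarid2. Trithorax-type genes were Kmt2a, Kmt2b, Setd1a and Men1, and the demethylases were Kdm1b, Kdm3b, Kdm4b and Kdm5a. Kdm1b scored 3505 at day 6 and 1126 at day 3, while Kdm3b scored 141 and 384 and lay low in the day 6 list (percentile 12.7). Genes of this list beyond its 4 highest day 6 scores are named outside the fixed rule, after their values were seen.

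Genes of DNA methylation and its readers held sites at 5 of 17 (29.4%, 10.3 to 56.0, against 10% of all genes), and among those with a CpG-rich promoter window at 3 of 11 (27.3%, 6.02 to 61.0), an interval that includes 18.7%. They included Mbd3 (1690 at day 6 and 414 at day 3), Mbd2 (1265 and 396) and Mbd4 (917 and 412), which encode members of the methyl-CpG-binding domain family, and Tdg (829 and 137), a thymine DNA glycosylase of demethylation. None of the Dnmt or Tet genes on the list had one.

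The title of the study places Oct1 beside Smad factors, the transcription factors of TGF-beta and BMP signalling. Sites were found at 9 of 49 genes of this pathway (18.4%, 8.76 to 32.0, an interval that includes the 10% of all genes). A day 6 only site was found at 15 of the 49, a larger share than the 16.8% of all genes, and a site of all 3 stages at 2. Receptors made up 3 of the 9, namely Acvr2b (1403 at day 6 and 392 at day 3), Acvr1b (1181 and 177) and Tgfbr1 (855 and 159), of which the first serves activin and Nodal ligands as a type II receptor. Regulators of Smads were Smurf2 (1464 and 478), a ubiquitin ligase, the repressor Tgif2 (1533 and 391), Skil (436 and 202) and Smad7 (310 and 136), the inhibitory Smad. Id3, a direct target of BMP signalling, scored 821 and 577. The ninth was the ligand gene Bmp7 with 218 and 81, named outside the rule after its value was seen. None of the receptor-activated Smads or Smad4 was among them. With only the upper 50% of each list by score, 4 of the 49 remained (8.16%), near the 6.03% of all protein-coding genes.

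In the Wnt and R-spondin list 12 of 54 genes had a site (22.2%). At the cell surface these were the Frizzled receptors Fzd5 (2611 at day 6 and 688 at day 3) and Fzd10 (585 and 353), and Znrf3 (1990 and 684), which encodes the ubiquitin ligase that removes Wnt receptors and that R-spondins oppose. Inside the cell they were Dvl1 (1832 and 332), Btrc (1418 and 256), Ctnnb1 (1051 and 267), which encodes beta-catenin, Apc (617 and 228) and Pygo2 (615 and 216). The other 4, Ccnd1, Gsk3b, Sfrp2 and Gsk3a, had day 6 scores from 213 to 471 and are named outside the rule. With only the upper 50% of each list by score, 8 of the 54 remained (14.8%, against 6.03%).

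Among Notch genes 4 of 35 had a site (11.4%), near the 10% of all genes. They were the ligands Jag1 (896 at day 6 and 473 at day 3) and Dll1 (762 and 523), and the pathway targets Hey1 (762 and 184) and Nrarp (437 and 371). The FGF list also had 4 of 35. Grb2, the adaptor that links receptors to Ras, scored 3678 at day 6 and 499 at day 3. The feedback inhibitor genes Spry4 (832 and 405) and Spred2 (203 and 182) and the kinase gene Map2k2 (617 and 266) made up the rest.

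In the mesoderm list 1 of 29 genes had a gained and kept site (3.45%, 0.0873 to 17.8), and this interval includes the 10% of all genes. The gene was Foxf1, a factor of lateral and splanchnic mesoderm, whose site scored 373 at day 6 and 403 at day 3. The site was also near the start of Fendrr, a long noncoding RNA gene beside it. Another 3 genes of the list had a day 6 only site and 2 a day 3 only site. Of 17 myogenic genes only Mef2d (416 and 74) had a gained and kept site (5.88%, 0.149 to 28.7), an interval that also includes 10%.

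Neural genes had such sites at 6 of 23 (26.1%, 10.2 to 48.4, against 10% of all genes), and at 4 of the 15 with a CpG-rich promoter window (26.7%, 7.79 to 55.1), an interval that includes 18.7%. Sox1, an early marker of neuroectoderm, led with 1474 at day 6 and 417 at day 3. It was followed by Nkx6-1 (985 and 246), Pou3f1 (902 and 220), Pou3f2 (439 and 153), Irx3 (375 and 147) and Neurog2 (375 and 163). The POU list shares 2 of these and adds Pou3f3 (1215 and 453) and Pou6f1, giving 4 of 15 (26.7%, 7.79 to 55.1). Pou2f1, which encodes Oct1 itself, was not among them. The pluripotency list had 4 of 25 (16.0%, 4.54 to 36.1), and both of these intervals include the 10% of all genes. Its sites lay at Sox2 (957 and 221), Trim28 (886 and 250), Rif1 (478 and 277) and Tbx3 (205 and 257).

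In the list of splicing factors and related gene names 22 of 81 genes had a site (27.2%), with the highest day 6 scores at Lsm14b (1958, and 450 at day 3), Prpf40b (1951 and 468), Lsm7 (1503 and 237) and Hnrnpul2 (1443 and 157). The median day 6 score of the sites in this list, 667, was below that of all gained and kept sites. With the upper 50% of each list by score, 6 of 81 remained (7.41%), near the 6.03% of all protein-coding genes. Translation factors had 14 of 65 (21.5%), led by Eif4e1b (1842 and 775), Eef1d (1759 and 412), Eif3j1 (1693 and 398) and Eif1 (1593 and 363). Mitochondrial ribosomal proteins had 15 of 78 (19.2%), with Mrpl10 (3141 and 479), Mrpl45 (2463 and 406) and Mrpl17 (2190 and 474) after Mrpl49.

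Cytosolic ribosomal proteins had a site at 7 of 85 (8.24%, 3.38 to 16.2, an interval that includes the 10% of all genes), and 31 of them had a day 6 only site. After Fau the highest were Rps16 (1731 at day 6 and 402 at day 3), Rpl4 (1052 and 194) and Rpl7a (649 and 315). Oxidative phosphorylation genes showed a like split, with 7 of 97 gained and kept (7.22%, 2.95 to 14.3) and 31 day 6 only. Their highest sites were at Ndufa10 (1712 and 175), Ndufa6 (1400 and 364), Ndufb4 (1319 and 311) and Ndufa13 (1198 and 188). Glycolysis and pentose phosphate genes had 2 of 27 (7.41%, 0.910 to 24.3), Taldo1 (564 and 165) and Eno1 (363 and 75), and 15 had a day 6 only site. This interval and that of oxidative phosphorylation include the 10% of all genes. Day 6 only sites were also the larger class over all protein-coding genes, at 16.8% of them.

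The intervals of the transcription, proteasome and aminoacyl-tRNA synthetase lists include the 10% of all genes. RNA polymerase and general transcription factor genes had 11 of 76 (14.5%), led by Gtf2h1 (1900 at day 6 and 267 at day 3), Polr2e (1648 and 268), Gtf2a1 (1135 and 624) and Polr2h (1003 and 112). Mediator had 4 of 32 (12.5%), at Med11 (2316 and 208), Med9 (1289 and 165), Med31 (1088 and 155) and Med22 (649 and 315), the last sharing its site with Rpl7a. Proteasome genes had 5 of 43 (11.6%), with Psmd8 (958 and 333), Psma4 (881 and 174), Psmd5 (480 and 249) and Psma7 (401 and 108). Aminoacyl-tRNA synthetases had 5 of 35 (14.3%), with Yars (922 and 350), Ears2 (871 and 92), Vars2 (803 and 216) and Tars (580 and 77).

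Cell cycle genes had a site at 15 of 78 (19.2%). Cdc34, a ubiquitin-conjugating enzyme gene, scored 2918 at day 6 and 612 at day 3, the inhibitor gene Cdkn1c 1801 and 637, the cyclin gene Ccne1 1699 and 513 and Cdkn2aip 1520 and 560. In the Hox clusters 2 of 39 genes had a site (5.13%, 0.627 to 17.3, an interval that includes 10%), namely Hoxa13 (2848 and 872) and Hoxc13 (2604 and 606). With a distance of 5 kb to a gene end, 5 of the 39 had one, and the count over all protein-coding genes rose from 2198 to 2718.

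The rule removes every site with an ESC Oct1 peak, so at the classes of gene for which Oct1 is best known the contrast with sites of all 3 stages is partly set by the choice of members. No small nuclear RNA gene on the list had a gained and kept site (0 of 26, for which the interval reaches 13.2%, against 5.21% of genes of any type), and 9 had a site of all 3 stages. The 4 sites whose nearest gene was a small nuclear RNA did not lie within 1 kb of an end of a listed gene. Of 67 replication-dependent histone genes 3 had a gained and kept site (4.48%, 0.933 to 12.5, an interval that includes 10%), against 13 with a site of all 3 stages and 25 with a day 3 only site. The 3 were H3c7 (190 at day 6 and 788 at day 3) and the neighbours H2bc18 and H3c13, which shared 1 site (106 and 255) that lay 490 bp from an ESC Oct1 peak. The H2bc18 promoter window held an exact octamer at -48, but its start lay outside the day 6 peak. Of 20 genes that earlier work had linked to Oct1, H2bc18 alone had a gained and kept site (5%, 0.127 to 24.9) and 6 had a site of all 3 stages. Of the 42 histone genes with a CpG-rich promoter window 2 had a gained and kept site (4.76%, 0.582 to 16.2), an interval below the 18.7% of such genes overall. Clustered histone genes can share a peak, so their counts are not independent.

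At the edge of the rule the overlaps were short. The members with the least overlap with their day 3 peak were those nearest to Leng9 (90 bp), Hotairm2 (150 bp), Kcnq1 (170 bp), Gm35399 (180 bp) and Dusp6 (280 bp), of which those of Kcnq1 and Dusp6 lay 11360 and 1331 bp from the gene end, and the median over all members was 580 bp. Just outside, day 6 peaks nearest to Slc2a4, Sp1, Wnk4, Top3a and Gm10644 were left out because an ESC peak overlapped them by 100, 170, 180, 190 and 190 bp. An ESC Oct1 peak lay within 1 kb of 22 members without touching them, and an ESC Oct4 peak within 1 kb of 29.

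Absence of an ESC peak at the site did not mean absence from the gene. Of the 2198 protein-coding genes with a gained and kept site at an end, 842 (38.3%, 36.3 to 40.4) had an ESC Oct1 peak elsewhere in the gene or within 10 kb, against 34.9% of all protein-coding genes. For ESC Oct4 peaks the shares were 46.2% (44.1 to 48.3) and 39.9%. Either kind of peak was present at 1143 of the 2198 genes (52.0%), against 46.2% of all protein-coding genes.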

How the data were processed

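Oct1 and Oct4 ChIP-seq peak lists of parental mouse cells were used, 4 lists with 1 library each. The 3 input samples were not analysed here. Each deposited list gives the position of every peak and the authors' score, a whole number without a stated unit, which was used only to rank peaks within a list. Per the submitters' processing notes, Novoalign 3.8.2 and the mm10 build were used. The peak caller, its threshold, the read depth and any pooling are not given in the sources used here.

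Overlap was at least 1 bp, computed in Python 3.11.15 with pandas 2.3.3, and bedtools 2.31.1 returned the same 2286 sites. A site was assigned to a gene when its midpoint lay within 1 kb of either end of the gene in the RefSeq table (GRCm38.p6, 49943 genes, of which 21887 are protein-coding symbols). Start sites and strands came from 32851 RefSeq promoter windows of 27025 genes, which are not complete. Shares have exact (Clopper-Pearson) and differences Newcombe 95% intervals, from scipy 1.17.1. With 1 library per group no test over libraries was possible, and no p-values are given. On simulated peaks 2250 of 2250 planted sites were found, and 95.2% of the simulated intervals covered the true difference. The simulated counts were independent, so they do not cover overlapping windows or genes that share a peak.

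The members and the gene lists were chosen with earlier results of these data known. Genes were named by a rule: the 10 highest day 6 and day 3 scores, the 5 highest far from genes, the 5 highest genes with several sites, up to 8 genes of each signalling or lineage list, the top 4 of other lists, and 5 cases on each side of the threshold. Alternatives were a score threshold, overlap, distance and annotation, list length and a looser octamer. Some items are not reported here.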

Additional observations from a re-analysis of the deposited data

How the results depend on the processing

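The share of sites at a gene end was 79.0% within 500 bp, 94.1% within 5 kb, 81.1% for protein-coding genes and 77.1% for start sites alone. With the upper 50% of every list by score it was 86.7%, as it was with the upper 50% of the day 3 and day 6 lists only. With the classes defined anew, these 2 thresholds gave 1338 and 1327 sites, at 1319 and 1308 protein-coding genes. The first also shortens the ESC lists, so a site that overlaps a weaker ESC peak can enter. The small excess over day 6 only sites changed sign under both thresholds, to -0.932 and -1.02 points, and to -1.10 points when all lists were shortened to 4867 peaks. The difference in octamer share from all promoters, -0.405 points, was 0.0157 and 0.0324 points under the 2 thresholds, and -10.5 points with 1 mismatch allowed (8.10% against 18.6%). The cause was not tested. The differences in gene-end share from day 3 only sites ran from 15.2 to 54.7 points over all alternatives and those from sites of all 3 stages from 6.04 to 20.1. Of 182 counts of single lists under the alternatives, 132 stayed within 1.5 times the main count. With the upper 50% of every list, the share of all protein-coding genes with a site was 6.03%, and no gene of the mesoderm, myogenic, histone or glycolysis lists had one. No paired analysis was possible because each group held 1 library. Depth is unknown, so a site absent from a list may have been too weak to be called.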

Other observations

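A small number of strong gained and kept sites lay far from annotated genes. The midpoint of 39 sites (1.71%) was over 10 kb from any gene end or start. The highest day 6 scores among them were 2595 near Gm30771, 2377 near Rpl30-ps6, 2186 near Slc38a2, which encodes an amino acid transporter, 1874 inside Dleu2, where Mir15a is the nearest gene end, and 1820 near Mir30d. Their day 3 scores were 699, 619, 590, 527 and 309.

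Several sites at 1 gene were rare. Among protein-coding genes 17 had 2 or more gained and kept sites, and 79 sites (3.46%) had another within 10 kb. Trappc1 had the highest summed day 6 score (3966 and 890), of which the first is the peak named above for Cntrob, whose end is nearer, followed by Klc2 (2150 and 749), Fiz1 and Zfp524, which share both their sites (1153 and 1593), and Cdkn2d (908 and 1443), which encodes an inhibitor of cyclin-dependent kinases.

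The sites were spread unevenly over chromosomes. Chromosome 11 held 251 of them (11.0%, 9.73 to 12.3), against 7.35% of protein-coding genes and 10.5% of the day 6 list. Chromosome X held 43 (1.88%, 1.36 to 2.53), against 4.41% of protein-coding genes and 2.11% of the day 6 list. These shares were close to those of all day 6 peaks.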
